A study of Homo sapiens with 12 samples.

Results

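Doxorubicin alone and together with the FAK inhibitor IN10018 was accompanied by a rise in some genes linked to amino acid stress in SK-OV-3 cells. The gene of ATF4, the central factor of that stress response, did not rise in any comparison. Several of the genes also respond to DNA damage or other pathways, and what raised them was not tested. The genes described here were 38 of the 60623 genes in the deposited files, chosen by name. They comprised 19 genes of cytosolic tRNA synthetases, 6 genes of serine, one-carbon and asparagine synthesis, 3 amino acid transporter genes and 10 genes of stress factors. All 38 were found under their symbols, and 37 had at least 1 FPKM in at least 3 libraries and were tested. The remaining one, ASNS, was below that level. SK-OV-3 cells are a line derived from a human ovarian tumour. They received DMSO (the solvent control), 300 nM doxorubicin (an anthracycline that damages DNA), 3 μM IN10018, or both drugs at those doses (combination) for 24 h, with 3 libraries in each of the 4 groups. The comparisons address what IN10018 adds to doxorubicin.

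ATF4 is the transcription factor at the centre of the integrated stress response. When amino acids run short or proteins misfold, kinases phosphorylate the translation factor eIF2α. Most protein synthesis then slows while the ATF4 mRNA is translated more, so ATF4 activity is largely set at the level of translation and its mRNA is an incomplete measure of it. ATF4 pairs with C/EBP proteins on composite C/EBP-ATF elements and induces genes that restore amino acids, namely transporters, synthesis enzymes and tRNA synthetases (the enzymes that load each tRNA with its amino acid), as well as stress factors such as DDIT3 (CHOP) and TRIB3. Several of the stress factors are also induced by DNA damage or by other pathways.

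The C/EBP-ATF element is shown first because it is the sequence feature these genes are known for. In the RefSeq promoter table of GRCh38.p14, which covers 250 bases before to 50 bases after each annotated start, 33 of the 38 genes had an entry. LARS1, PSPH, SHMT2, VARS1 and YARS1 were the other five. The motif TGATGNAA, searched on both strands (TTNCATCA on the other), occurred in a promoter of 12 of these 33 genes (36.4%) against 1217 of all 27305 genes (4.46%). Counted by promoter, it was in 12 of 49 against 1270 of 35116 (3.62%). The 12 genes were the synthetases AARS1, CARS1, GARS1, IARS1, MARS1, NARS1 and TARS1 (7 of 16), the enzyme ASNS (1 of 4), the transporters SLC3A2 and SLC7A1 (2 of 3) and the stress factors CEBPG and CHAC1 (2 of 10). The ER stress element (CCAAT, 9 bases, CCACG) occurred in 0 of 49 promoters of these genes and in 27 of all 35116 (0.08%). A match is a description of letters and was not tested for binding.

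Stretches of the plus or minus strand as the gene reads, with the motif in capitals, are given for the pair of matching genes that passed a test below (SLC3A2 and CEBPG) and for 6 matching genes that did not or were not tested.
SLC3A2: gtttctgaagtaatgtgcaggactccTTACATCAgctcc
CEBPG: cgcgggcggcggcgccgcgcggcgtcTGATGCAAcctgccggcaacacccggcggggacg
ASNS: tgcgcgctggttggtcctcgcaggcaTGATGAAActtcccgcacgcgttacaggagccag
CHAC1: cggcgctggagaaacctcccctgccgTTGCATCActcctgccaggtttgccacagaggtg
SLC7A1: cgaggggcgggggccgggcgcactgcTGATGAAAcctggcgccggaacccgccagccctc
AARS1: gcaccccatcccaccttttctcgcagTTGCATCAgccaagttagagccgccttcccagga
NARS1: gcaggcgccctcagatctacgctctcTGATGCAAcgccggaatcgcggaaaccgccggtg
TARS1: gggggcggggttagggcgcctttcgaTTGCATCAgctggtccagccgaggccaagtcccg
In GRCh38.p14 these lie at chr11:62881710-62881748 on the plus strand for SLC3A2, at a start inside the gene, and at chr19:33374045-33374104 (plus) for CEBPG. ASNS lies at chr7:97872443-97872502 (minus), CHAC1 at chr15:40953236-40953295 (plus) and SLC7A1 at chr13:29595648-29595707 (minus). The synthetase stretches lie at chr16:70289660-70289719 (minus) for AARS1, chr18:57621789-57621848 (minus) for NARS1 and chr5:33440941-33441000 (plus) for TARS1. The motif started 37 bases after the annotated start in SLC3A2 and 14 after it in NARS1, and 209 bases before it in CHAC1.

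The libraries held 8033951 to 12901505 reads each, recovered as whole numbers from the FPKM. Keratin genes and the SK-OV-3 markers CDH2, ERBB2 and PAX8 were present in all libraries, while MUC16 and WT1, 2 genes of many ovarian cancers, were at most 0.02 and 0.08 FPKM. PTPRC, CD3E, VWF, DCN and ALB, markers of blood cells, endothelium, fibroblasts and liver, stayed at or below 0.15 FPKM, PECAM1 reached 0.27 and the collagen gene COL1A1 0.41 to 2.14 FPKM. Within treatments, 3 libraries stood apart on a shared axis that held 55.4% of the spread between replicates. DMSO replicate 2, IN10018 replicate 1 and combination replicate 2 scored 36.7, 36.2 and 25.3 on it, and the other libraries −24.2 to 6.56. In the combination, replicate 1 scored −21.7, on the other side, and replicate 3 scored −3.53. A chi-square of reads per degree of freedom was 29.2 between combination replicates 2 and 3. It was 87.3 and 52.0 between replicate 1 and these replicates in turn. By that measure replicate 1 was the combination library least like the others, and refits without the 3 libraries kept it. In DMSO replicate 2, 17 of the 19 synthetase genes were below both other DMSO libraries, and in IN10018 replicate 1 the count was 16 of 19. In combination replicate 2 it was 10 of 19. ATF4 was highest in its treatment in each of these 3 libraries. The synthetases averaged 0.39 and 0.40 log2 units below their treatment means in DMSO replicate 2 and IN10018 replicate 1, but only 0.10 below in combination replicate 2, close to the 0.09 of combination replicate 1. The plot of synthetases and ATF4 against that score shows these values. What sets these libraries apart was not tested, and changed calls without them are given beside each gene.

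**Figure D1:**
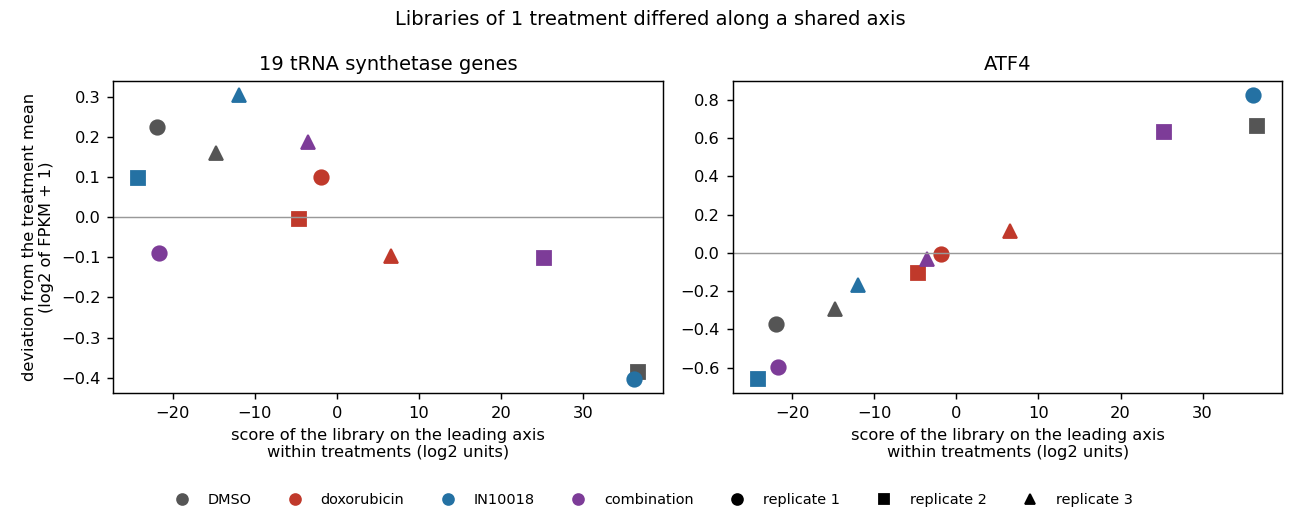
Each point is 1 library, placed by its score on the leading axis of spread within treatments (x, log2 units) and by its deviation from its treatment mean (y, log2 of FPKM + 1) for the average of the 19 synthetase genes (left) and for ATF4 (right). Colours mark treatments and shapes mark replicate numbers. DMSO replicate 2 and IN10018 replicate 1 lie lowest for the synthetases, at −0.39 and −0.40, and DMSO replicate 2, IN10018 replicate 1 and combination replicate 2 lie highest for ATF4.

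Fold changes below are differences of log2(FPKM + 1) with their standard errors (SE, from limma) and p-values adjusted over all 11301 genes tested. FPKM are read fragments scaled to gene length and library depth. The length behind the values was 9218 bases for PHGDH, with 1771 coding bases, and 2206 for PSAT1, with 1110. Levels can therefore be set side by side between libraries for 1 gene, but only roughly between genes. A gene is called when its adjusted p is under 0.05. With doxorubicin against DMSO, 5 of the 37 genes rose and 1 fell, where 5.92% of all genes tested rose and 2.1% fell. With the combination against DMSO, 10 rose and none fell, where 14.3% of all genes rose and 1.28% fell. With IN10018 alone, 0 of the 37 were called, where 0.00885% of all genes (1 gene) were. The combination against IN10018 had 7 genes higher and 1 lower, where 14.6% of all genes were higher and 1.43% lower. None of the 37 was called between the combination and doxorubicin or in the interaction of both drugs, and neither was any other gene (0%). With a correction for GC content and gene length the balance of calls was different: 9 of the 37 genes were higher and 3 lower with the combination than with DMSO, with 1218 of all genes higher and 1023 lower, where the uncorrected values gave 1616 and 145. That correction gave 7 higher and 4 lower of the 37 with doxorubicin, with 1232 and 1115 of all genes, and 7 and 4 against IN10018, with 1468 and 1283 of all genes. Comparisons with DMSO share the same 3 control libraries, as do those with the combination. No source used here says that the 3 libraries of a group were separate cultures, and p-values cover only the spread between these libraries.

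The transporter gene SLC3A2 showed a rise in both groups with doxorubicin. It encodes the heavy chain (4F2hc) that carries amino acid exchangers such as SLC7A5 to the cell surface. Its level was 33.9, 44.5 and 32.0 FPKM in DMSO replicates 1 to 3 and 110.7, 81.6 and 105.5 FPKM with doxorubicin. It was 49.2, 32.4 and 41.8 FPKM with IN10018 and 85.0, 180.2 and 136.2 FPKM with the combination. Every library with doxorubicin, alone or combined, lay above all 6 without it. The difference was 1.41 ± 0.27 (log2 ± SE, adjusted p = 0.0075) for doxorubicin, 1.78 ± 0.27 (adjusted p = 0.00107) for the combination and 1.63 ± 0.27 (adjusted p = 0.0014) for the combination against IN10018. It was called in all 3 comparisons under each of the 23 alternative settings.

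The partner light chain did not pass the test. SLC7A5 (LAT1), which exchanges large neutral amino acids, was at 51.2, 46.7 and 55.0 FPKM with DMSO and 55.3, 41.7 and 45.5 FPKM with doxorubicin. With the combination it was at 37.3, 71.7 and 81.2 FPKM, a range that took in both other groups. SLC7A1, a transporter of arginine and lysine, ranged from 4.17 to 8.54 FPKM over all 12 libraries and its groups overlapped in each comparison. The level of SLC7A5 shares sequence with the pseudogene SLC7A5P1, which had up to 2.02 FPKM. Of the transporters, 1 of 3 was called in each of these 3 comparisons, and whether SLC3A2 changed more than SLC7A5 was not tested.

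Among the stress factors, PPP1R15A had the smallest p-value of the 37 genes for doxorubicin against DMSO, for the combination against DMSO and for the combination against IN10018. It encodes GADD34, the subunit that directs a phosphatase to eIF2α and so ends the response. It was at 6.20, 4.86 and 4.46 FPKM with DMSO, 13.5, 10.8 and 12.4 FPKM with doxorubicin, 5.70, 5.12 and 6.49 FPKM with IN10018 and 16.6, 20.02 and 28.02 FPKM with the combination. The libraries of DMSO and IN10018 overlapped, those of doxorubicin lay above both and those of the combination above doxorubicin. The change was 1.11 ± 0.21 (adjusted p = 0.0061) for doxorubicin, 1.85 ± 0.21 (adjusted p = 0.000142) for the combination and 1.71 ± 0.21 (adjusted p = 0.000168) for the combination against IN10018, and each was called under all 23 alternatives. The combination exceeded doxorubicin by 0.74 ± 0.21, which did not pass (adjusted p = 0.246) although the groups did not overlap. In that comparison 24.8% of all genes were higher without overlap, and the median of all genes was 0.23. The difference of PPP1R15A passed without combination replicate 1 (0.90, adjusted p = 0.0335), where 638 of all genes were higher.

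DDIT3 and TRIB3, both classical ATF4 targets, rose as well. DDIT3 encodes CHOP, a C/EBP-family factor linked to cell death under prolonged stress. It was at 19.2, 34.3 and 18.7 FPKM with DMSO, 48.9, 51.1 and 63.8 FPKM with doxorubicin, 35.7, 22.5 and 23.2 FPKM with IN10018 and 57.5, 72.6 and 57.2 FPKM with the combination. All 6 libraries with doxorubicin were above the 6 without, and DMSO replicate 2 and IN10018 replicate 1, which stood apart, were the highest of their groups. The change was 1.20 ± 0.26 (adjusted p = 0.014) for doxorubicin, 1.39 ± 0.26 (adjusted p = 0.0036) for the combination and 1.20 ± 0.26 (adjusted p = 0.00696) for the combination against IN10018. The doxorubicin call was lost without DMSO replicate 1, DMSO replicate 3 or doxorubicin replicate 3 (adjusted p = 0.0672, 0.0676 and 0.0753). It was also lost with no filter (adjusted p = 0.0523). The 3′ end of DDIT3 overlaps that of MARS1 on the other strand over 355 exonic bases (27.2% of its exons). Larger overlaps with genes on the other strand also involve DDIT4 (DDIT4-AS1, 847 bases, 41.2%), MTHFD2 (SLC4A5, 27.2%) and ATF5 (NUP62, 21.2%). These other genes had mean levels of 0, 0.0224 and 2.14 FPKM. No source used here says whether reads were counted by strand.

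TRIB3 encodes a pseudokinase that restrains ATF4 and AKT signalling. It was at 18.5, 26.01 and 27.5 FPKM with DMSO, 54.0, 41.7 and 50.8 FPKM with doxorubicin, 37.8, 25.5 and 32.8 FPKM with IN10018 and 37.7, 91.6 and 56.1 FPKM with the combination. Both groups with doxorubicin were above DMSO, but the lowest combination library overlapped IN10018. The change was 1.01 ± 0.29 (adjusted p = 0.0496) for doxorubicin and 1.26 ± 0.29 (adjusted p = 0.0112) for the combination, and the combination against IN10018 did not pass (0.85 ± 0.29, adjusted p = 0.0621). The doxorubicin call held in 11 of the 23 alternatives. With 1 library left out, it held only without IN10018 replicate 1, combination replicate 1 or combination replicate 2, all outside this comparison. In the other 9 such fits the adjusted p ran from 0.0526 to 0.189, the latter without DMSO replicate 1. The difference from IN10018 passed without combination replicate 1 (1.16, adjusted p = 0.00922). For the combination against DMSO, both DDIT3 and TRIB3 lost their calls only under median-ratio scaling (adjusted p = 0.0651 and 0.0862). The DDIT3 call against IN10018 was also lost under that scaling alone (0.90, adjusted p = 0.116).

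**Figure D2:**
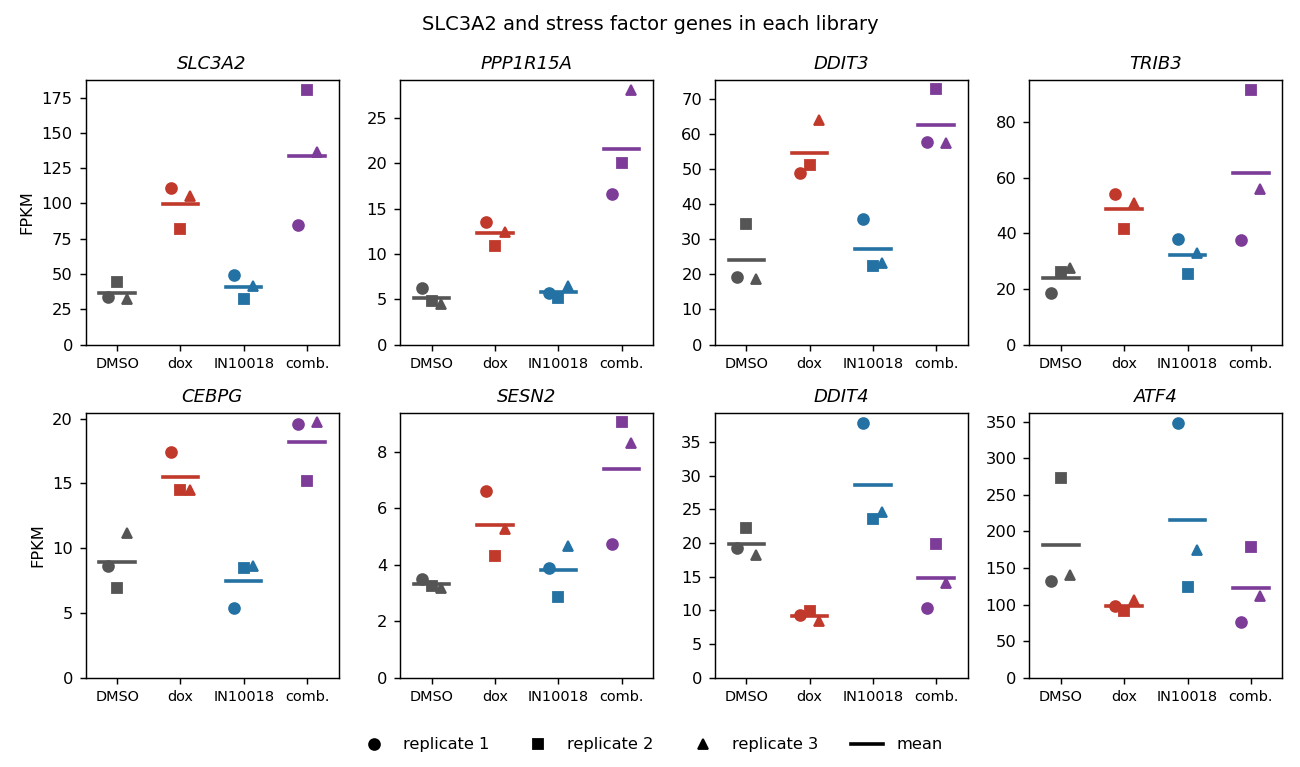
FPKM (y) of SLC3A2 and 7 stress factor genes in each of the 12 libraries, by treatment (x), with shapes for replicate numbers and a line at the mean of each group of 3. SLC3A2, PPP1R15A and DDIT3 are higher in all 6 libraries with doxorubicin than in the 6 without, DDIT4 is lowest with doxorubicin alone, and ATF4 shows 1 high library in each of DMSO, IN10018 and the combination.

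C/EBP genes and SESN2 passed the test with the combination and not with doxorubicin alone. CEBPG encodes a dimer partner of ATF4. It was at 8.65, 6.89 and 11.2 FPKM with DMSO, 17.4, 14.5 and 14.5 FPKM with doxorubicin, 5.38, 8.50 and 8.64 FPKM with IN10018 and 19.6, 15.2 and 19.7 FPKM with the combination. Again no library with doxorubicin overlapped one without. The change was 0.75 ± 0.22 for doxorubicin (adjusted p = 0.0532), 0.97 ± 0.22 for the combination (adjusted p = 0.0105) and 1.19 ± 0.22 for the combination against IN10018 (adjusted p = 0.00271). The doxorubicin value passed without IN10018 replicate 1 or combination replicate 1 (adjusted p = 0.0297 and 0.046) and without the 3 libraries that stood apart (0.60, adjusted p = 0.0193). IN10018 and combination libraries lie outside that comparison, and without either of these replicates the fold change stayed at 0.75. The combination call was lost without combination replicate 3 (adjusted p = 0.0575), and the call against IN10018 held under all 23 alternatives.

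CEBPB encodes a C/EBP factor of inflammatory and stress responses that can also pair with ATF4. It was at 13.8, 15.8 and 16.2 FPKM with DMSO, 28.4, 21.8 and 23.1 FPKM with doxorubicin, 21.9, 18.5 and 18.8 FPKM with IN10018 and 17.1, 37.8 and 35.7 FPKM with the combination. Each treated group lay above DMSO. The change was 0.64 ± 0.26 for doxorubicin (adjusted p = 0.16) and 0.86 ± 0.26 for the combination (adjusted p = 0.0394), a call that 7 of the 23 alternatives kept. With 1 library left out, it held only without IN10018 replicate 1, IN10018 replicate 2 or combination replicate 1, and its adjusted p rose to 0.184 without combination replicate 3. The call was also lost without the 3 libraries that stood apart (0.69, adjusted p = 0.145). Without combination replicate 1, which lies outside that comparison, the doxorubicin value of CEBPB passed as well at an unchanged 0.64 (adjusted p = 0.0248). SESN2 encodes sestrin 2, a leucine sensor that holds back mTORC1 and is also a p53 target. It was at 3.50, 3.26 and 3.20 FPKM with DMSO, 6.61, 4.31 and 5.28 FPKM with doxorubicin, 3.88, 2.88 and 4.68 FPKM with IN10018 and 4.74, 9.07 and 8.33 FPKM with the combination. Its combination libraries lay above those of DMSO and IN10018. The change was 0.55 ± 0.23 for doxorubicin (adjusted p = 0.168), 0.92 ± 0.23 for the combination (adjusted p = 0.0164) and 0.78 ± 0.23 for the combination against IN10018 (adjusted p = 0.0336). The combination call of SESN2 was lost without combination replicate 2, combination replicate 3 or DMSO replicate 3 (adjusted p = 0.0704, 0.0874 and 0.0565). It was also lost under median-ratio scaling (0.67, adjusted p = 0.0643), quantile normalization (0.61, adjusted p = 0.0673) and with no filter (adjusted p = 0.0597). The call of SESN2 against IN10018 was lost without doxorubicin replicate 3, IN10018 replicate 1 or 2, or combination replicate 2 or 3 (adjusted p = 0.0509 to 0.149). It held in 12 of the 23 alternatives, and neither under median-ratio scaling (adjusted p = 0.133) nor under quantile normalization (adjusted p = 0.137). Without the 3 libraries that stood apart both calls of SESN2 were lost (adjusted p = 0.0944 and 0.131). For none of these 3 genes did the combination differ from doxorubicin by the test (SESN2 0.36 ± 0.23, adjusted p = 0.424).

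DDIT4 went the other way from DDIT3 with doxorubicin. It encodes REDD1, an inhibitor of mTORC1 induced by ATF4, hypoxia and glucocorticoids. It was at 19.3, 22.2 and 18.2 FPKM with DMSO, 9.36, 9.93 and 8.43 FPKM with doxorubicin, 37.9, 23.5 and 24.6 FPKM with IN10018 and 10.3, 19.9 and 14.0 FPKM with the combination. Doxorubicin libraries were below all others, IN10018 libraries above all others. DDIT4 fell by 1.03 on the log2 scale with doxorubicin (SE 0.24, adjusted p = 0.0202), and was lower with the combination than with IN10018 (−0.92 ± 0.24, adjusted p = 0.019). The other differences did not pass, at 0.47 ± 0.24 for IN10018 against DMSO (adjusted p = 1), −0.45 ± 0.24 for the combination against DMSO (adjusted p = 0.236) and 0.58 ± 0.24 for the combination against doxorubicin (adjusted p = 0.287). The doxorubicin call was lost without DMSO replicate 1 or 3 or any of the doxorubicin replicates (adjusted p = 0.051 to 0.0917), and the call against IN10018 without IN10018 replicate 1 (−0.71, adjusted p = 0.0729), combination replicate 1 or combination replicate 3. Against DMSO, DDIT4 was lower with the combination without the 3 libraries that stood apart (−0.60, adjusted p = 0.0451), after quantile normalization of the libraries (−0.77, adjusted p = 0.0255) and after the GC and length correction (−0.77, adjusted p = 0.00315).

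ATF4 itself had the highest mean FPKM of the 38 genes in DMSO and did not pass in any comparison. Its level was 133, 272 and 140.2 FPKM with DMSO, 97.96, 91.1 and 106 FPKM with doxorubicin, 348, 124 and 175 FPKM with IN10018 and 75.7, 179 and 112 FPKM with the combination. All doxorubicin libraries were below all DMSO libraries, and the highest library of DMSO, of IN10018 and of the combination was the one that stood apart. The difference was −0.80 ± 0.39 for doxorubicin (adjusted p = 0.249), 0.19 ± 0.39 for IN10018 (adjusted p = 1), −0.57 ± 0.39 for the combination (adjusted p = 0.367) and 0.23 ± 0.39 for the combination against doxorubicin (adjusted p = 0.713). Its SE was the largest among the 37 genes. After a correction for GC content and gene length it was lower with doxorubicin (−0.95, adjusted p = 0.0319) and with the combination (−0.91, adjusted p = 0.0379) than with DMSO, and lower with the combination than with IN10018 (−1.004, adjusted p = 0.0217). The related pseudogene ATF4P3 had up to 2.57 FPKM.

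CHAC1 and ATF5 completed the stress factors. CHAC1 encodes an enzyme that degrades glutathione and is commonly used as a readout of ATF4 activity. It was at 7.20, 9.93 and 9.66 FPKM with DMSO, 7.12, 5.81 and 7.05 FPKM with doxorubicin, 10.4, 5.52 and 9.36 FPKM with IN10018 and 4.60, 9.98 and 8.09 FPKM with the combination. The doxorubicin libraries lay just below the lowest DMSO library and the other groups overlapped. The difference was −0.37 ± 0.27 for doxorubicin (adjusted p = 0.463), −0.26 ± 0.27 for the combination (adjusted p = 0.572) and 0.11 ± 0.27 for the combination against doxorubicin (adjusted p = 0.796). With the correction for GC content and length, CHAC1 was lower with doxorubicin (−0.69, adjusted p = 0.00284) and with the combination (−0.73, adjusted p = 0.00223) than with DMSO, and lower with the combination than with IN10018 (−0.48, adjusted p = 0.0155). ATF5, an ATF4-related factor also controlled by translation, was at 3.25 to 4.88 FPKM with DMSO and at 5.15, 8.40 and 8.58 FPKM with the combination (0.67 ± 0.22, adjusted p = 0.0619). It passed without combination replicate 1 (0.87, adjusted p = 0.0136).

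In all, 3 of the 10 stress factors rose and 1 fell with doxorubicin, where 5.92% of all genes rose and 2.1% fell. With the combination 6 rose and none fell, where 14.3% rose and 1.28% fell. Of the 23 alternatives, the doxorubicin calls held in 23 for PPP1R15A, 19 for DDIT3, 17 for DDIT4 and 11 for TRIB3. The combination calls held in 23 for PPP1R15A, 22 each for DDIT3, TRIB3 and CEBPG, 16 for SESN2 and 7 for CEBPB. The median fold change of the 10 was 0.60 with doxorubicin, where the median of all genes was −0.01, and 0.89 with the combination, where the median of all genes was 0.20. In each case 3 of the 10 had a negative value, namely ATF4, DDIT4 and CHAC1.

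**Figure D3:**
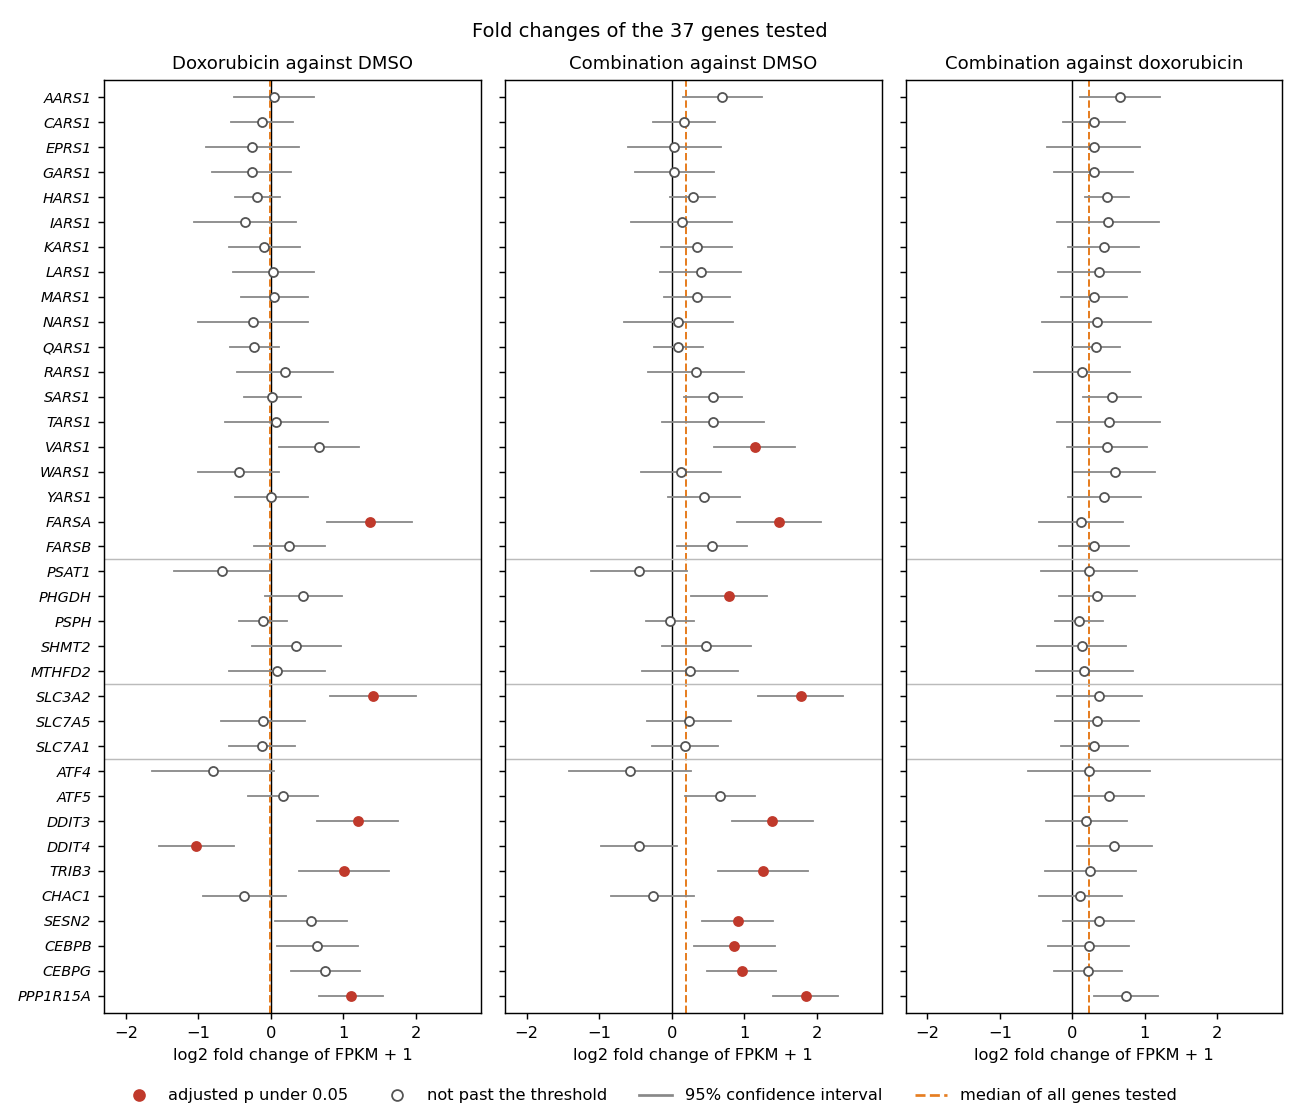
Fold changes (x, log2 of FPKM + 1) of the 37 genes tested, with 95% confidence intervals, in 3 comparisons. Lines separate synthetases, synthesis enzymes, transporters and stress factors, filled points passed an adjusted p of 0.05, and the dashed line is the median of all 11301 genes. With doxorubicin 6 points are filled, with the combination 10, and in the combination against doxorubicin none, although all 37 points lie right of 0.

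The tRNA synthetases did not move as a group with doxorubicin. Of the 19, 1 rose and none fell, 10 fold changes were above 0 and 9 below it, and their median was 0.01. The one that rose was FARSA, the α subunit of the cytosolic phenylalanyl-tRNA synthetase. It was at 13.5, 15.03 and 14.1 FPKM with DMSO, 43.3, 32.1 and 39.7 FPKM with doxorubicin, 15.4, 10.7 and 16.9 FPKM with IN10018 and 26.03, 59.3 and 45.9 FPKM with the combination. No library with doxorubicin overlapped one without. The change was 1.36 ± 0.27 (adjusted p = 0.00875) for doxorubicin, 1.48 ± 0.27 (adjusted p = 0.00326) for the combination and 1.49 ± 0.27 (adjusted p = 0.00239) for the combination against IN10018, with each call kept under all 23 alternatives. The gene of its β subunit, FARSB, was at 1.26 to 2.88 FPKM with DMSO and 2.39 to 2.88 FPKM with doxorubicin and was not called, though it was higher after the GC and length correction with doxorubicin (0.31, adjusted p = 0.0454) and with the combination (0.37, adjusted p = 0.0237). The difference between the 2 subunits was not tested, and the length behind the FARSB values (6762 bases) differed from its 3369 exonic bases in GENCODE 29.

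VARS1, the valyl-tRNA synthetase, was the second synthetase called with the combination. It was at 3.93, 3.54 and 3.20 FPKM with DMSO, 7.68, 5.96 and 5.20 FPKM with doxorubicin, 3.53, 3.17 and 4.79 FPKM with IN10018 and 5.31, 11.0 and 12.4 FPKM with the combination. All 6 libraries with doxorubicin were above the 6 without. The change was 0.67 ± 0.26 for doxorubicin (adjusted p = 0.139), 1.14 ± 0.26 for the combination (adjusted p = 0.0098) and 1.07 ± 0.26 for the combination against IN10018 (adjusted p = 0.0124). Without combination replicate 3 the combination call was lost (0.94, adjusted p = 0.0622), as it was without the 3 libraries that stood apart (1.01, adjusted p = 0.0713), and so was the call against IN10018 (adjusted p = 0.0751 and 0.0896). The doxorubicin value passed without combination replicate 1, which lies outside that comparison, at an unchanged 0.67 (adjusted p = 0.0332).

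The other 17 synthetases were not called in any comparison of the treatments. AARS1 (alanine) was at 23.6, 14.6 and 21.3 FPKM with DMSO and 28.4, 29.3 and 40.1 FPKM with the combination. SARS1 (serine), the synthetase with the highest mean FPKM in DMSO, was at 38.3, 30.5 and 36.4 FPKM with DMSO and 46.6, 52.6 and 57.9 FPKM with the combination. In both the combination libraries lay above those of DMSO, by 0.70 ± 0.25 (adjusted p = 0.0797) and 0.57 ± 0.19 (adjusted p = 0.0548). Both passed without IN10018 replicate 1 (adjusted p = 0.0407 and 0.0449). That library lies outside this comparison, and the fold changes stayed at 0.70 and 0.57. SARS1 also passed without combination replicate 1 (0.64, adjusted p = 0.0295). WARS1 (tryptophan), known as an interferon-induced gene, was at 21.0, 10.1 and 18.1 FPKM with DMSO, 12.03, 12.04 and 9.88 FPKM with doxorubicin, 17.9, 25.3 and 28.9 FPKM with IN10018 and 15.4, 17.4 and 19.6 FPKM with the combination. It differed by −0.45 ± 0.26 with doxorubicin (adjusted p = 0.332), 0.56 ± 0.26 with IN10018 (adjusted p = 1) and −0.42 ± 0.26 between the combination and IN10018 (adjusted p = 0.297). The last of these passed under median-ratio scaling (−0.70, adjusted p = 0.0237), with the GC and length correction (−0.61, adjusted p = 0.0363) and without the 3 libraries that stood apart (−0.61, adjusted p = 0.0429). With the combination all 19 synthetases were above 0 at a median of 0.35, but under median-ratio scaling, and likewise under quantile normalization, 12 were above 0 and 7 below. The median of all genes in this comparison was 0.20, and −0.01 under median-ratio scaling, where that of the synthetases was 0.08.

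Without the 3 libraries that stood apart, the synthetases gave another picture for doxorubicin. IARS1 (−0.68, adjusted p = 0.0112), NARS1 (−0.58, adjusted p = 0.0186), WARS1 (−0.74, adjusted p = 0.0128), EPRS1 (−0.54, adjusted p = 0.0404) and GARS1 (−0.51, adjusted p = 0.034) were then lower with doxorubicin than with DMSO. In that fit 6 of the 37 genes were higher and 7 lower, and over all genes 1312 were higher and 1709 lower, against 669 and 237 with all libraries. Of the libraries left out, only DMSO replicate 2 is in this comparison. Without DMSO replicate 2 alone the synthetase median was the same (−0.23), and none of these synthetases was called. That fit called 4 of the 37 genes higher and 2 lower. The level of NARS1 (asparagine) was 32.0, 14.8 and 29.9 FPKM with DMSO and 22.9, 19.2 and 18.9 FPKM with doxorubicin, so that the DMSO library that stood apart lay below and the other 2 above all of doxorubicin.

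**Figure D4:**
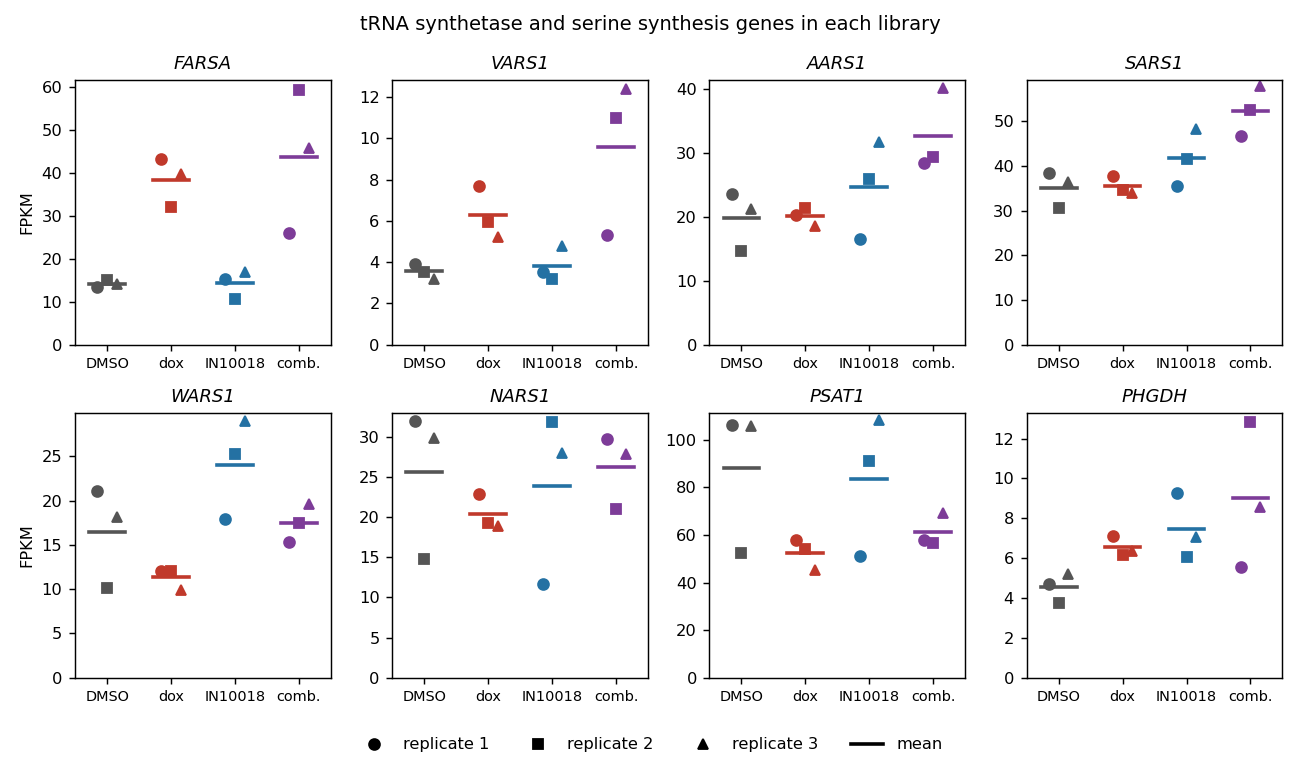
FPKM (y) of 6 synthetase and 2 serine synthesis genes in each of the 12 libraries, by treatment (x), with shapes for replicate numbers and a line at the mean of each group of 3. FARSA and VARS1 are higher in all libraries with doxorubicin than in those without, while NARS1 and PSAT1 have DMSO replicate 2 and IN10018 replicate 1 as their lowest libraries of those groups.

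The enzymes of amino acid synthesis did not move together. PHGDH, which makes the first committed step of serine synthesis, was at 4.68, 3.77 and 5.23 FPKM with DMSO, 7.11, 6.15 and 6.35 FPKM with doxorubicin, 9.27, 6.05 and 7.09 FPKM with IN10018 and 5.58, 12.8 and 8.58 FPKM with the combination. Each treated group lay above DMSO. The change was 0.45 ± 0.25 for doxorubicin (adjusted p = 0.312), 0.60 ± 0.25 for IN10018 (adjusted p = 1) and 0.79 ± 0.25 for the combination (adjusted p = 0.045), a call that 7 of the 23 alternatives kept. With 1 library left out, it held only without IN10018 replicate 1, IN10018 replicate 2 or combination replicate 1, and its adjusted p rose to 0.166 without combination replicate 2. It was lost without the 3 libraries that stood apart (0.42, adjusted p = 0.164). PSAT1, the next enzyme of the pathway, was at 106, 52.4 and 106 FPKM with DMSO, 57.9, 53.9 and 45.2 FPKM with doxorubicin, 51.3, 91.0 and 108 FPKM with IN10018 and 57.9, 56.8 and 69.1 FPKM with the combination. It differed by −0.68 ± 0.31 with doxorubicin (adjusted p = 0.211) and −0.45 ± 0.31 with the combination (adjusted p = 0.362). Leaving out DMSO replicate 2, the low control library, PSAT1 was lower with doxorubicin (−1.01, adjusted p = 0.0433). Without all 3 libraries that stood apart it was lower with doxorubicin (−1.01, adjusted p = 0.00542) and with the combination (−0.73, adjusted p = 0.0302) than with DMSO, and lower with the combination than with IN10018 (−0.64, adjusted p = 0.0393).

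PSPH, which finishes serine synthesis, ranged from 1.69 to 2.69 FPKM and its groups overlapped throughout. SHMT2 and MTHFD2, mitochondrial enzymes of one-carbon metabolism, ranged from 28.3 to 66.8 and from 8.66 to 28.7 FPKM and were not called. MTHFD2 was at 8.66, 17.3 and 18.1 FPKM with IN10018 and 24.7, 19.6 and 28.7 FPKM with the combination, which did not overlap (0.74 ± 0.31, adjusted p = 0.124).

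ASNS, which makes asparagine and is among the best known ATF4 targets, was nearly absent from the values. It was at 0.30, 0.20 and 0.32 FPKM with DMSO, 0.21, 0.16 and 0.12 FPKM with doxorubicin, 0.07, 0.48 and 0.29 FPKM with IN10018 and 0.29, 0.22 and 0.11 FPKM with the combination. The groups overlapped and the gene was not tested. In GENCODE 29, 1683 of its 1752 coding bases (96.1%) also belong to exons of the readthrough gene AC079781.5 on the same strand, which itself had 0.017 to 0.187 FPKM, and the pseudogene ASNSP1 had 0.497 to 1.04 FPKM. No source used here says how reads shared by these genes were assigned, so the level of ASNS is uncertain.

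The combination was compared with doxorubicin to see what IN10018 adds. All 37 genes had a positive value, with a median of 0.33, and so did 9171 of the 11301 genes tested (81.2%), with a median of 0.23. Under median-ratio scaling, where the median of all genes was 0.02, 25 of the 37 were above 0 and 12 below, and under quantile normalization 33 and 4. At an unadjusted p under 0.05 there were 7 of the 37 genes and 1778 of the 11301. The combination and doxorubicin libraries did not overlap for 14 of the 37 genes, 12 of them synthetases, where 24.8% of all genes were higher without overlap. Among these synthetases were AARS1 with 0.66 ± 0.25 (adjusted p = 0.272), WARS1 with 0.58 ± 0.26 (adjusted p = 0.304), SARS1 with 0.54 ± 0.19 (adjusted p = 0.246), IARS1 with 0.50 ± 0.33 (adjusted p = 0.436) and HARS1 with 0.48 ± 0.14 (adjusted p = 0.246). In AARS1, the doxorubicin libraries were at 20.3, 21.4 and 18.6 FPKM, so all 3 combination libraries exceeded them.

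Without the 3 libraries that stood apart, 7 synthetases were called higher with the combination than with doxorubicin, namely AARS1, HARS1, IARS1, KARS1, SARS1, TARS1 and WARS1, at 0.47 to 0.72 with adjusted p-values of 0.0407 to 0.0497. In that fit 1110 of all genes were higher and 211 lower. Without combination replicate 1, VARS1 (0.82, adjusted p = 0.0387) was called beside PPP1R15A, and 638 of all genes were higher and 38 lower. VARS1 was at 0.48 ± 0.26 with all libraries (adjusted p = 0.365). Genes that had risen most with doxorubicin were not called between these groups. SLC3A2 differed by 0.37 with a 95% interval of −0.21 to 0.96 (adjusted p = 0.466), DDIT3 by 0.19 ± 0.26 (adjusted p = 0.646) and TRIB3 by 0.25 ± 0.29 (adjusted p = 0.601). Such p-values do not show that the levels were equal.

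None of the 37 genes passed the test with IN10018 alone. An unadjusted p under 0.05 was found for 2 of the 37 genes and for 414 of all 11301, so nothing particular is read from the 2. The largest values were PHGDH and WARS1, given above. CEBPB was at 0.35 ± 0.26 and MTHFD2 at −0.49 ± 0.31, each with an adjusted p of 1. PHGDH, DDIT4 and CEBPB were the 3 genes whose IN10018 libraries lay wholly above DMSO, and 0 of the 37 lay wholly below. Of all 11301 genes tested, 438 lay wholly above and 390 wholly below, so nothing particular to the 3 is read from this. With limma voom on recovered reads, none was called either.

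The interaction asks whether both drugs together differed from the sum of their single effects. None of the 37 genes had an unadjusted p under 0.05, against 689 of all 11301. The highest values were 0.65 ± 0.44 for MTHFD2, 0.60 ± 0.29 for PPP1R15A and 0.59 ± 0.46 for TARS1, each with an adjusted p of 0.685, and the median of the 37 was 0.24 beside 0.24 for all genes.

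Genes with and without the C/EBP-ATF motif in the promoter window were set beside these calls. Of the 11 tested genes with the motif, SLC3A2 rose with doxorubicin, and SLC3A2 and CEBPG rose with the combination. The 7 synthetases with the motif were not called in either. Of the 21 genes with an entry and no match, 4 rose and 1 fell with doxorubicin and 7 rose with the combination, FARSA, PPP1R15A, DDIT3 and TRIB3 being in both. Median fold changes with the combination were 0.18 with the motif and 0.35 without, where the median of all genes was 0.20. Over all genes tested, 5.92% rose and 2.1% fell with doxorubicin, and 14.3% rose with the combination. Whether genes with the motif differed from those without it was not tested. These are counts over genes that were selected by name, and no match says only that these letters are not in this window.

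Other genes of the pathway were counted in lists of general knowledge. Of 24 tested other ATF4 targets, 2 rose with doxorubicin and 4 with the combination, at list medians of 0.02 and 0.28, beside medians of −0.01 and 0.20 and shares of 5.92% and 14.3% higher over all genes. The counts of this and the following lists were small and nothing particular to a list is read from them. They included ATF3, a stress factor of the same family and also a DNA damage gene, whose mean was 0.42 FPKM with DMSO and 6.61 FPKM with doxorubicin (2.43 ± 0.16, adjusted p = 7.96e-06), and PYCR1 of proline synthesis (0.88, adjusted p = 0.0414). GDF15, a secreted stress cytokine (1.62, adjusted p = 0.000552), GOT1 (1.05, adjusted p = 0.0035) and SQSTM1 (1.00, adjusted p = 0.00714) rose with the combination. Of the 12 tested mitochondrial synthetases only TARS2 rose with the combination (0.60, adjusted p = 0.0242), and of 5 other cytosolic synthetase and scaffold genes only AIMP2 (0.75, adjusted p = 0.0171). Among 17 genes of eIF2α kinases, phosphatases and eIF2B, EIF2B2 rose with doxorubicin, and EIF2B2 and EIF2AK3 (PERK) rose with the combination (0.67 and 0.74, adjusted p = 0.0107 and 0.0184). Of 15 tested ATF6 and XBP1 targets, XBP1 rose with doxorubicin, and XBP1, HYOU1 and DNAJB11 with the combination. None of 12 tested genes of amino acid sensing by mTORC1 was called in these 2 comparisons, and no gene of any of these lists fell in either. None passed with IN10018 alone.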

How the data were processed

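RNA of SK-OV-3 cells (12 libraries) was prepared by the authors with a strand-directional kit, sequenced on an Illumina instrument and processed with TopHat, Cufflinks and Cuffdiff on hg38, per the methods and the submitters' processing notes. No source used here gives versions or the annotation. The deposited values are FPKM per gene made by the authors. In all 24090 of 24090 genes above 0 in at least 3 libraries, the FPKM gave whole reads (relative tolerance 1e-09), from which depth was taken. Denominators up to 300000 were allowed, which fit almost any ratio within that tolerance, so this count does not test the recovered reads. Genes with 1 symbol were summed (93 symbols). The 11301 genes that reached 1 FPKM in 3 or more libraries were tested on log2(FPKM + 1) in limma 3.58.1 (R 4.3.3), with 1 fit of 4 groups, a trended prior, two-sided tests and Benjamini-Hochberg adjustment over all genes. A fold change on this scale understates that of low genes. The fit was tested on simulated data. Positions and overlaps came from GENCODE 29, and 58516 of 60623 gene IDs matched it. Values in every library, fold changes and tests are given for genes called in a comparison and for ATF4, ASNS, CHAC1, TRIB3, DDIT3 and SESN2, and for others by range or where a group lay apart. The genes and lists were chosen with earlier results of these data known. Alternatives were other pseudocounts, filters and scalings, only the groups compared, a replicate block, leaving out libraries, a GC and length correction, and limma voom on recovered reads.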

Additional observations from a re-analysis of the deposited data

How the results depend on the processing

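Each call was recomputed under 23 alternatives. FARSA, SLC3A2 and PPP1R15A kept their calls in all of them in the 3 comparisons, as did CEBPG against IN10018. The genes called with doxorubicin, 6 as reported (5 higher, 1 lower), were 3 with no filter, 13 without the 3 libraries that stood apart and 11 once GC content and length were corrected for. They were 3 to 9 when 1 library was left out. The 3 came without DMSO replicate 1, DMSO replicate 3 or doxorubicin replicate 3, and the 9 without combination replicate 1, which is outside that comparison. Over all genes those fits called 330, 364, 317 and 955 higher in turn, against 669 with all libraries. With the combination against DMSO 10 became 5 under median-ratio scaling, and 5 to 12 with 1 library left out, 5 without combination replicate 3. All-gene calls were then 875 higher and 416 lower under median-ratio scaling, against 1616 and 145. They were 658 and 52 without combination replicate 3, and 2213 and 194 without combination replicate 1. The GC and length correction gave 9 higher and 3 lower of these genes with the combination against DMSO, and 7 and 4 against IN10018. Against IN10018 8 became 5 with no filter and 5 to 10 with 1 library left out, 5 without combination replicate 3. All-gene calls in that comparison were 812 higher and 69 lower without combination replicate 3, and 2062 and 145 without combination replicate 1. With all libraries they were 1653 and 162. For the combination against doxorubicin, 0 became 7 without the 3 libraries that stood apart, but stayed 0 without combination replicate 2 alone. It became 0 to 2 with 1 library left out, 2 without combination replicate 1. For IN10018 and the interaction, 0 of these genes were called in every alternative run. Leaving out a library outside a comparison keeps its fold changes and alters only the spread pooled over the groups. Calls gained or lost in that way say nothing further on the size of a change. Other causes were not tested.

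Uncalled values near 0 changed sign. Between the combination and doxorubicin, ATF4, CHAC1, DDIT3 and TRIB3 were −0.061, −0.144, −0.0946 and −0.035 under median-ratio scaling. Without the 3 libraries that stood apart ATF4, CHAC1 and TRIB3 were −0.0897, −0.0984 and −0.0751. CHAC1 was −0.163 under quantile normalization, and CHAC1 and TRIB3 were −0.0422 and −0.0029 with the GC and length correction. With 1 library left out, ATF4 ran from −0.0897 to 0.527, CHAC1 from −0.0984 to 0.388 and TRIB3 from −0.0751 to 0.554, each lowest without combination replicate 2. With 1 library left out, ATF4 ran from −0.221 to 0.522 for IN10018 and CHAC1 from −0.466 to 0.0206 for the combination against DMSO. ASNS was tested only with no filter, and not called there.

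Replicate numbers were not stated to pair samples. Over 18 same-numbered pairs r ran from −0.68 to 0.72 (median −0.12), and the median of other numbers was 0.08. Between DMSO and the combination, same-numbered pairs were at 0.47, 0.72 and 0.09, and other numbers ran from −0.65 to 0.37. With 1 axis holding 55.4% of the spread, these values do not decide whether libraries were paired. With the replicate number as a block, 4 genes were higher and 1 lower with doxorubicin, 8 and 0 with the combination, and 6 and 1 against IN10018. Over all genes these fits called 464 higher and 92 lower, 1189 and 90, and 1272 and 113.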
